A study of Mus musculus with 4 samples.

Results

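The genes described here are 50 components of the extracellular matrix other than collagens. They were looked up by symbol among the 27495 gene symbols in the tables of 4 lines labelled as neural stem cell (NSC) lines. These genes were taken as a fixed list, which was chosen with earlier results of these data known. They fall into 6 groups by role, which are 7 small leucine-rich proteoglycans (SLRPs), 16 elastic fibre and microfibril genes, 10 fibronectin and matricellular genes, 10 crosslinking and remodelling genes, 2 nidogens of the basement membrane, and 5 lectican-type genes of neural matrix. For sums, 39 of the genes were counted as fibroblast-type and 5 as lectican-type, and *Sparcl1*, *Tnc*, *Spp1*, *Ecm1*, and the nidogens belonged to neither.

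The lines were derived from mouse epiblast stem cells (EpiSCs) of strain 129/Sv and grown without serum in medium with EGF and FGF2 (10 ng/ml each). Lines XN4 and XN1 also received a nominal 10 µM XAV939, an inhibitor of canonical Wnt signaling, from different suppliers. The paper reports that XAV939 from the supplier used for XN1 formed crystals in culture, and holds that this must have lowered its effective concentration. KN1 received neither a Wnt inhibitor nor a Wnt activator, and CN4 received 2 µM CHIR99021, a GSK3 inhibitor that activates canonical Wnt signaling. Growing cells were dissociated with Accutase, stored in CellCover, and lysed on a BD Rhapsody cartridge, where barcoded beads take up the poly(A) RNA of single cells. Each line is 1 derivation measured in 1 library, so no test between lines was possible, intervals cover counting error only, and line, supplier, Wnt condition, and library cannot be told apart.

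SLRPs such as decorin bind collagen fibrils and govern their spacing, while fibrillins, fibulins, and elastin build the elastic fibres of connective tissue, and lysyl oxidases crosslink both. The matrix of the central nervous system is poor in fibrils and is instead built on hyaluronan, to which chondroitin sulfate proteoglycans of the lectican family (versican, neurocan, brevican) attach, held by link proteins and joined by tenascins. Neural progenitors and glia make lecticans and tenascin-C, and fibroblasts and meningeal cells make most SLRPs.

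The depth behind the levels was 41639370 reads in 3927 cells of XN4, 19292007 in 3905 of XN1, 27563145 in 3975 of KN1, and 22966338 in 3448 of CN4, and shares of cells with a read (capture) were taken over 8741, 14452, 3975, and 18157 cells, respectively. A level is given as the reads of a gene per 1000000 reads of the line (RPM), without ribosomal protein and mitochondrial genes, and is not scaled to transcript length. The KN1 library stood apart, with a median of 833 genes per cell against 2260 to 2827.5 in the other lines, and with 7.39 reads behind each captured gene of a cell against 2.14 to 3.9, so capture in KN1 is given as a value of that library and differences from KN1 are read from levels. Genes in few cells are left out of the normalized tables of XN4, XN1, and CN4, which could not be checked for KN1, and 16 of the 50 genes had no value in KN1 (*Lum*, *Bgn*, *Fmod*, *Aspn*, *Fbln5*, *Efemp1*, *Mfap4*, *Mfap5*, *Ltbp2*, *Postn*, *Thbs2*, *Mgp*, *Lox*, *Timp1*, *Serpinf1*, *Spp1*). A level under 3 reads, and that of a gene not listed in KN1, was set to 3 reads for ratios. Of 10 neural progenitor markers, 10 were captured in at least 10% of CN4 cells, 8 in XN1, and 2 in XN4 (*Msi1*, *Notch1*), while of 10 fibroblast markers 7 reached 10% in XN4 against 3 in XN1 and 1 in CN4. With its fewer genes per cell, KN1 held 5 of the neural progenitor and 0 of the fibroblast markers at that share. In these markers, which were chosen with earlier results of these data known, XN4 went against its label as a neural stem cell line. It is called here by its name only. Pairs of lines shared between 37 and 320 cell barcodes. Among the 169 CN4 cells that shared a barcode with XN4, *Dcn* was captured in 2.37% against 1.16% of the other CN4 cells. *Spp1* was captured in 2.37% against 1.40%, and *Bgn* in 0% against 0.156%. In the 139 such XN1 cells, *Dcn*, *Spp1*, and *Bgn* were captured in 0%, against 0.650%, 1.29%, and 0.0559% of the others. *Dcn* was captured in 0% of the 37 such KN1 cells against 0.432%. At such low shares, 0% in so few cells shows little, and carryover between libraries was not tested.

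Of the 50 genes, 36 had their highest level in XN4 against 7 in XN1, 3 in KN1, and 3 in CN4. The remaining gene, *Mfap5*, had under 3 reads in the cells used for levels in XN4, XN1, and CN4 and was not listed in KN1. The same count over all genes was not made. Some of the 36 genes were near ties, such as *Loxl1* and *Fbln1*, at 1.01-fold and 1.05-fold over CN4. Levels were compared for the 46 genes captured in at least 1% of the cells of a line. The level in XN4 was at least 4-fold above each other line for 21 of the 46 (45.7%), against 5.3% of all 13804 genes tested, and at least 4-fold below each other line for 4 (8.70%), against 4.97%. As the list was chosen with earlier results of these data known, these shares describe its genes and are no independent support. The 21 genes spanned every group except the lectican-type one, and the 4 lower genes were *Ncan*, *Bcan*, *Tnc*, and *Fbln2*. Of the 21, *Lum*, *Bgn*, *Aspn*, *Postn*, *Mgp*, and *Lox* passed the 1% filter only through XN4. A call in another direction was hardly open to them, and the share of such genes in the background was not counted. In XN1, 0 genes were 4-fold above each other line (background 1.02%) and 0 below (0.703%). In CN4, *Ncan* alone was above each other line (0.761%) and 0 genes below (0.29%). In KN1, 0 genes were above (3.72%) and 10 below (5.14%), but the latter count was 5 (background 1.74%) when genes not listed in KN1 were placed at the most that a gene left out of the other tables had, which was 9 cells. The 10 genes were *Eln*, *Ltbp3*, and *Nid1*, which were listed in KN1, and *Fbln5*, *Efemp1*, *Thbs2*, *Lox*, *Timp1*, *Serpinf1*, and *Spp1*, which were not.

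**Figure D1:**
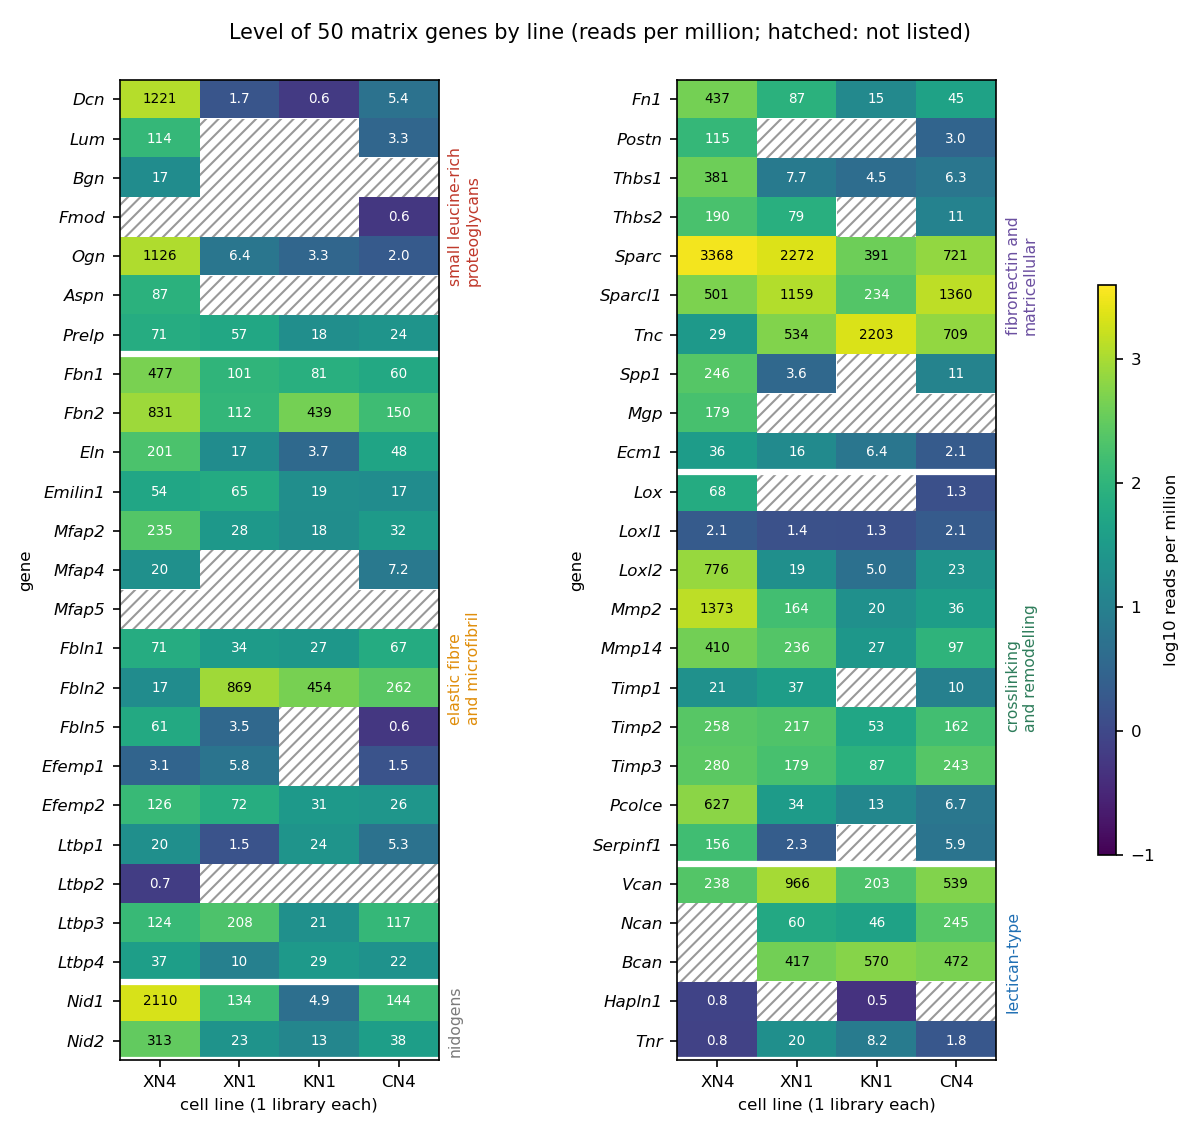
Heat map of the level of each of the 50 genes (rows, by group) in the 4 lines (columns), with the level in RPM printed in each field and the color on a log10 scale; hatched fields mark genes left out of that line's normalized table. The XN4 column is the brightest for most genes from *Dcn* at 1221 to *Nid1* at 2110.3, whereas *Ncan* and *Bcan* are hatched in XN4 only.

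Promoter sequences are shown for 2 pairs of genes that separated XN4 from the other lines in opposite directions, the nearby SLRP genes *Ogn* and *Aspn*, which were higher in XN4, and the lectican genes *Ncan* and *Bcan*, which were lower. RefSeq promoters (GRCm38.p6, from 250 bases before to 50 after the transcription start) were found for 35 of the 50 genes. Each is written 5′ to 3′ in the direction of transcription, with the TATA-box letters TATAAA, on either strand (TTTATA), in capitals; 13.6% of all 32851 promoters hold such a match.
Ogn promoter, chr13:49607765-49608064, plus strand: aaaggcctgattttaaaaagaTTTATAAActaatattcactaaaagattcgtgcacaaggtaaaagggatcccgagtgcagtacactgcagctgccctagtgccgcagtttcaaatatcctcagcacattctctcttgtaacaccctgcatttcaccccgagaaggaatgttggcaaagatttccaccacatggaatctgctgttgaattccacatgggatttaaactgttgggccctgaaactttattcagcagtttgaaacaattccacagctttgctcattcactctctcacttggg
Aspn promoter, chr13:49544193-49544492, plus strand: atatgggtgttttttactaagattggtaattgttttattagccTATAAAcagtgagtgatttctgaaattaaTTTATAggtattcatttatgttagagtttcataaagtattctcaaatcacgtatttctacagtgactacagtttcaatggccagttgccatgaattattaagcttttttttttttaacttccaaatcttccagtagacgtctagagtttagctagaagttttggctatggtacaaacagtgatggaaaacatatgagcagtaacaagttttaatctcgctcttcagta
Ncan promoter, chr8:70120795-70121094, minus strand: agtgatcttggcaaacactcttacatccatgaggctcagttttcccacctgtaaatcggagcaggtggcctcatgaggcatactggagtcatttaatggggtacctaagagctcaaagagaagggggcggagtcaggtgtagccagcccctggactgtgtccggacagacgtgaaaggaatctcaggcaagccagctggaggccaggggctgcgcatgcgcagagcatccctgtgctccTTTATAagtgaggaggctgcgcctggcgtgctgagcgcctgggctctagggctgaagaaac
Bcan promoter, chr3:88000307-88000606, minus strand: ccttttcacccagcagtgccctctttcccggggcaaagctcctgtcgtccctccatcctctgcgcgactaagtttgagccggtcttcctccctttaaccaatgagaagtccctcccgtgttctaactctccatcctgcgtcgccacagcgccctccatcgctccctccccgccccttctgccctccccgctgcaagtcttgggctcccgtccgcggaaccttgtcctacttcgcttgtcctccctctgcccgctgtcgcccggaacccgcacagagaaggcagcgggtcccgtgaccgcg
The *Ogn* promoter holds a match on each strand, which overlap and begin 229 and 227 bases before the start, and the *Aspn* promoter holds matches 207 and 178 bases before it. The match in the *Ncan* promoter begins 11 bases before the start, and the *Bcan* promoter holds none. The GC content was 42.3% for *Ogn*, 31.0% for *Aspn*, 56.7% for *Ncan*, and 64.0% for *Bcan*, against a median of 52.7% over all promoters, and the number of CG dinucleotides was 4, 3, 9, and 24, against a median of 7.

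Among the 7 SLRPs, 6 were tested. XN4 was at least 4-fold above each other line for 5 (*Dcn*, *Lum*, *Bgn*, *Ogn*, *Aspn*), against 5.3% of all genes tested, and below each for 0 (4.97%). *Dcn*, encoding decorin, stood at 1221 RPM in XN4 against 1.66 in XN1, 0.617 in KN1, and 5.36 in CN4. It was captured in 87.5% of XN4 cells (exact interval 86.7% to 88.1%) against 0.644%, 0.428%, and 1.17%. *Ogn*, encoding osteoglycin, stood at 1126, 6.43, 3.30, and 2.05 RPM in the same order, with capture in 78.8% of XN4 cells and 2.67%, 0.679%, and 0.556% of the others. For both genes most XN4 cells carried the transcript, while XN1 and CN4 stayed at or under 2.67% of cells. *Lum* (lumican) stood at 114 RPM in XN4 against 0.311 in XN1 and 3.27 in CN4, with capture in 28.5% of XN4 cells and 0.479% of CN4 cells. *Aspn* (asporin) stood at 87.4 in XN4, in 26.6% of cells, against 1 cell with a read in XN1 and 4 in CN4. *Bgn* (biglycan), by contrast, was low even in XN4, at 17.2 RPM in 3.11% of cells, against 0.156 in XN1 and 1.96 in CN4. In CN4, 4 cells of a subcluster of 10 held 95.6% of its reads. *Prelp* was less separated, at 70.9 RPM in XN4 against 56.6 in XN1, 18.4 in KN1, and 24.2 in CN4. *Fmod* (fibromodulin) was captured in at most 0.138% of the cells of XN4, XN1, and CN4.

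Several of these genes are neighbors in the genome, by the GENCODE annotation of GRCm38. *Aspn* (chromosome 13, 49544443 to 49567565) and *Ogn* (49608046 to 49624501) are 40.5 kb apart with *Omd*, another SLRP gene, between them, and both lie inside *Cenpp* on the opposite strand. *Omd*, which is not on the list and was looked up for its position, was captured in 5.91% of XN4 cells against 0.0554% in XN1 and 0.0441% in CN4. *Lum* and *Dcn* are neighbors on chromosome 10, 47.0 kb apart with no protein-coding gene between, and both were highest in XN4. *Vcan* and *Hapln1* are likewise neighbors on chromosome 13, 43.7 kb apart, yet *Hapln1* was captured in at most 0.549% of the cells of any line, whereas *Vcan* was captured in 18.6% to 91.5%. Of the 50 genes, 29 overlap another annotated gene, 8 of them on the same strand, and reads of such pairs may be shared, as intronic reads were counted and strand handling is not given in the sources used here.

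Of the 16 elastic fibre and microfibril genes, 14 were tested. XN4 was at least 4-fold above each other line for 4 (*Fbn1*, *Eln*, *Mfap2*, *Fbln5*, background 5.3%) and below each for 1 (*Fbln2*, background 4.97%). The latter share lay near the background. *Fbn1*, encoding the main fibrillin of adult microfibrils, stood at 477 RPM in XN4 against 101 in XN1, 81.1 in KN1, and 59.8 in CN4. Its capture was 75.9%, 33.5%, 9.94%, and 27.9% of cells. *Fbn2*, a fibrillin of developing tissues, stood at 831, 112, 439, and 149.8 RPM, so KN1 lay nearest to XN4. *Eln*, encoding elastin, stood at 201, 17.4, 3.66, and 47.7, and *Mfap2*, a microfibril glycoprotein gene, at 235, 28.3, 18.1, and 31.9. *Fbln5*, whose product is needed to assemble elastin onto microfibrils, stood at 61.0 in XN4 against 3.52 in XN1 and 0.566 in CN4. The fibulins parted in direction. *Fbln2* stood at 17.0 RPM in XN4 against 869 in XN1, 454 in KN1, and 262 in CN4. It was captured in 4.86% of XN4 cells (4.42% to 5.33%) against 87.2%, 36.2%, and 49.6%. *Fbln1* differed little between XN4 (70.6) and CN4 (67.3) and stood at 33.8 in XN1 and 26.7 in KN1.

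The other genes of this group showed no single pattern. *Efemp2*, encoding fibulin-4, stood at 126, 72.4, 31.2, and 26.3 RPM in XN4, XN1, KN1, and CN4. *Emilin1*, an elastin interface gene, was slightly higher in XN1 (64.9) than in XN4 (53.7), with 19 in KN1 and 17.2 in CN4. *Ltbp3*, encoding a latent TGF-beta binding protein, was highest in XN1 at 208, against 124 in XN4, 20.7 in KN1, and 117 in CN4. The remaining 6 genes, *Efemp1*, *Mfap4*, *Mfap5*, *Ltbp1*, *Ltbp2*, and *Ltbp4*, were captured in at most 21.0% of cells in any line where they were listed, and *Mfap5* in at most 0.110% of the cells of XN4, XN1, and CN4. *Efemp1*, encoding fibulin-3, stood at 3.10 RPM in XN4, 5.81 in XN1, and 1.52 in CN4.

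Of fibronectin and the matricellular genes, 5 of 10 were at least 4-fold higher in XN4 than in each other line (*Fn1*, *Thbs1*, *Postn*, *Mgp*, *Spp1*), against 5.3% of all genes, and 1 was lower (*Tnc*), against 4.97%. *Sparc*, encoding a collagen-binding matricellular protein, was abundant in every line, at 3368 RPM in XN4 against 2272 in XN1, 391 in KN1, and 721 in CN4. It did not pass 4-fold in XN4. Its relative *Sparcl1*, known from astrocytes, was higher in XN1 and CN4 than in XN4, with 501, 1159, 234, and 1360.4 RPM. *Fn1* (fibronectin) stood at 437, 86.9, 14.8, and 44.7. *Thbs1* stood at 381, 7.67, 4.50, and 6.27, with capture in 65.3% against at most 2.75% of cells. Its relative *Thbs2* was less separated, with 189.6 in XN4 against 78.8 in XN1 and 11.1 in CN4. Both thrombospondins bind cell surface and matrix proteins, and *Thbs2* was not listed in KN1. *Postn* (periostin) stood at 115 in XN4 against 0.415 in XN1 and 3.0 in CN4, and was captured in 27.3% of XN4 cells. *Mgp*, encoding an inhibitor of calcification, stood at 179 in XN4 against 0.311 in XN1 and 0.174 in CN4, and was captured in 38.6% of cells against at most 0.226% in XN1 and CN4. *Spp1* (osteopontin) stood at 246, 3.58, and 11.4 in XN4, XN1, and CN4, but was captured in only 16.9% of XN4 cells. *Tnc*, encoding the tenascin of neural progenitors and of wounds, stood at 29.4 RPM in XN4 against 534 in XN1, 2203 in KN1, and 709 in CN4. It was captured in 5.34% of XN4 cells (4.88% to 5.83%) and in 67.4% to 71.9% of the cells of the other lines. *Ecm1* was captured in at most 16.9% of cells in any line.

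Of the genes that crosslink and remodel the matrix, 5 of 10 were at least 4-fold higher in XN4 (*Lox*, *Loxl2*, *Mmp2*, *Pcolce*, *Serpinf1*), against 5.3% of all genes, and the metalloproteinase inhibitors were not among them. *Mmp2*, encoding a gelatinase, stood at 1373 RPM in XN4 against 164 in XN1, 20.5 in KN1, and 36.1 in CN4. Its capture was 89.8%, 39.6%, 2.92%, and 13.6% of cells. *Mmp14*, the membrane protease that activates Mmp2, showed a smaller difference, with 410.1, 236, 27.5, and 97.3. *Timp2* stood at 258, 217, 52.9, and 162 and *Timp3* at 279.6, 179, 87.3, and 243, so XN4, XN1, and CN4 lay close together. *Timp1* stood at 20.9 in XN4, 36.7 in XN1, and 10.1 in CN4, in at most 12.2% of their cells. *Loxl2*, a lysyl oxidase gene, stood at 776 in XN4 against 19.5, 5.04, and 23.2, and *Lox* at 68.3 against 0.518 in XN1 and 1.35 in CN4, while *Loxl1* was captured in at most 1.62% of cells. *Pcolce*, encoding an enhancer of procollagen processing, stood at 627, 33.8, 13.4, and 6.75. *Serpinf1*, encoding the secreted serpin PEDF, stood at 156 in XN4 against 2.28 in XN1 and 5.88 in CN4.

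Both nidogens, which link laminin to collagen IV in basement membranes, were at least 4-fold higher in XN4, against 5.3% of all genes. *Nid1* stood at 2110.3 RPM in XN4 against 134 in XN1, 4.86 in KN1, and 144 in CN4. Its capture was 88.5%, 35.5%, 0.855%, and 39.5% of cells. *Nid2* stood at 313, 23.2, 13.2, and 38.4. XN1 and CN4 lay close together for *Nid1*, and KN1 was lowest for both genes.

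Of the 5 lectican-type genes, 4 were tested. *Bcan* and *Ncan* were at least 4-fold lower in XN4 than in each other line, against 4.97% of all genes tested, and 0 were higher, against 5.3%. *Bcan* (brevican) stood at 417 RPM in XN1, 569.6 in KN1, and 472 in CN4. It was captured in 74.2%, 53.2%, and 85.3% of their cells and had reads in 5 of 8741 XN4 cells. *Ncan* (neurocan) stood at 60.1, 45.6, and 245 in the same lines, and had reads in 7 XN4 cells. These shares of XN4 cells, 0.0572% and 0.0801%, were too low to be read as expression. *Vcan* (versican), which mesenchymal cells also make, stood at 238 in XN4 against 966 in XN1, 203 in KN1, and 539 in CN4. KN1 thus lay below XN4, where it was captured in 45.7% of cells. *Tnr* (tenascin-R), known from oligodendrocytes and interneurons, was scarce, with 0.793, 19.7, 8.16, and 1.79 RPM. The *Ncan* level in CN4 was 4.08-fold that of XN1, the next highest line, and this was the single gene of the list at least 4-fold higher in CN4 than in each other line. The count was 0 over all cells of the tables (background 0.753%) and 0 with captures in place of reads (0.616%).

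**Figure D2:**
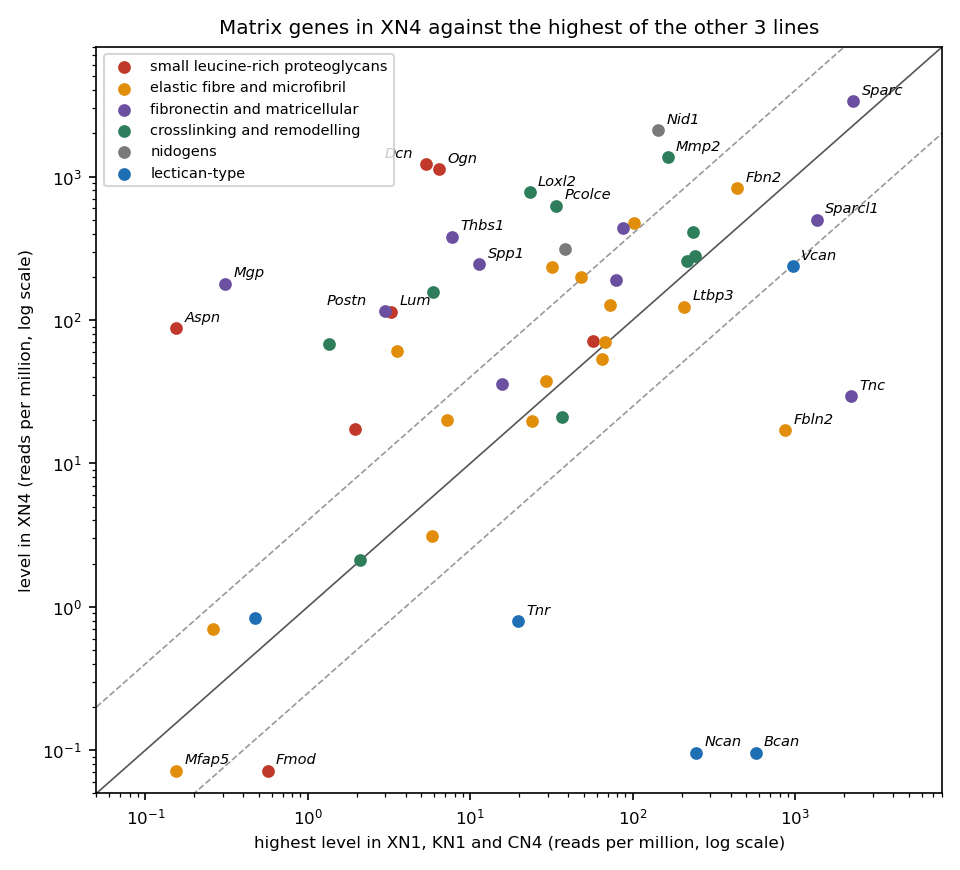
Level of each gene in XN4 against its highest level among XN1, KN1, and CN4, in RPM on log axes, colored by group; the solid line marks equality and the dashed lines 4-fold, and levels under 3 reads are drawn at 3 reads. The SLRPs *Dcn*, *Ogn*, and *Aspn* lie far above the upper dashed line, and *Tnc*, *Fbln2*, *Ncan*, and *Bcan* far to the right.

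Summed over the lists, the fibroblast-type genes stood at 13555 RPM in XN4 against 4930 in XN1, 1787 in KN1, and 2227 in CN4. The lectican-type genes stood at 239, 1463, 827, and 1258. The ratio of the sums was 56.6 in XN4 against 3.37 in XN1, 2.16 in KN1, and 1.77 in CN4. Single genes carried much of these sums, and the ratio is therefore a description of the lines rather than of each gene. *Vcan* supplied 99.2% of the lectican-type reads of XN4, and without it the ratio of XN4 was 7427. *Sparc* supplied 46.1% of the fibroblast-type reads of XN1, and without it the ratio of XN1 was 1.82. Counted by genes over the cells used for levels, 26 of 39 fibroblast-type genes were captured in at least 25% of cells in XN4 against 11 in XN1 and 8 in CN4. The numbers of lectican-type genes were 1, 2, and 3 of 5. In KN1, where fewer genes were captured per cell, the numbers were 3 and 1. The shares of all genes at that capture were not counted.

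The XAV lines, given the same nominal dose, differed widely. XN4 was at least 4-fold above XN1 for 24 of 46 genes tested (52.2%, background 9.5%) and below XN1 for 6 (13.0%, background 8.16%), which were *Fbln2*, *Tnc*, and the lectican-type genes *Vcan*, *Ncan*, *Bcan*, and *Tnr*. The median log2 difference, XN4 minus XN1, was 2.89 over the 37 fibroblast-type genes with at least 3 reads in either line and 0.13 over 13264 tested genes, and over the 5 lectican-type genes it was -4.64.

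XN1 and CN4 were nearer to each other. XN1 was at least 4-fold above CN4 for 6 of 40 genes tested (15%, background 3.59%) and below CN4 for 2 (5%, background 3.59%). The 6 genes were *Tnr*, with 19.7 against 1.79 RPM, *Ecm1*, with 15.8 against 2.09, *Thbs2*, with 78.8 against 11.1, *Fbln5*, *Pcolce*, and *Mmp2*, and the 2 genes were *Mfap4* and *Ncan*. The median log2 difference, XN1 minus CN4, was 0.29 over 37 fibroblast-type genes and -0.11 over 12518 tested genes. Over the 48 genes of the whole list with at least 3 reads in either line it was -0.14, near that of all tested genes. Against KN1, XN1 was at least 4-fold above for 15 of 36 genes tested (41.7%, background 9.59%) and below for 2 (5.56%, background 11.2%), and CN4 was above for 12 of 37 (32.4%, background 7.71%) and below for 2 (5.41%, background 8.85%). Among the 12 was *Dcn*, whose CN4 level was 5.36 RPM against 0.617 in KN1 but 1.31, under 4-fold, without the 10 CN4 cells of a small subcluster. The median log2 difference over the fibroblast-type genes was 1.62 for XN1 minus KN1 (35 genes) and 1.48 for CN4 minus KN1 (37 genes), against 0.04 and 0.12 over all tested genes. The genes above KN1 in both XN1 and CN4 included *Nid1*, *Eln*, *Ltbp3*, and *Sparcl1*, and the genes below KN1 were *Ltbp1* and *Tnc* in XN1 and *Ltbp1* and *Tnr* in CN4. These comparisons share libraries, and those with KN1 include genes that were not listed there.

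The sums were then compared cell by cell at an equal number of reads. This did not make KN1 equal in captured genes, as the median thinned cell held 764 genes in KN1 against 1650 in XN4, 1810 in XN1, and 1845 in CN4. After each cell was thinned to 3200 reads, leaving 3384 cells of XN4, 3129 of XN1, 3396 of KN1, and 3158 of CN4, the median cell held 39 fibroblast-type reads in XN4 against 15 in XN1, 4 in KN1, and 6 in CN4. The range from the 5th to the 95th percentile of cells was 16 to 76 in XN4 and 7 to 27 in XN1, and 47.7% of XN1 cells reached the 5th percentile of XN4 against 6.92% of KN1 cells and 5.16% of CN4 cells. The median XN4 cell carried reads of 12 different fibroblast-type genes, the median XN1 cell of 6, and the median CN4 cell of 4. Lectican-type reads were lacking in 68.4% of XN4 cells, against 4.35% in XN1 and 5.26% in CN4. Both kinds of matrix transcript were found together in 31.6% of XN4 cells, 95.7% of XN1 cells, and 93.4% of CN4 cells. The lectican-type reads of XN4 were nearly all of *Vcan*, which alone was captured in 31.3% of its thinned cells. Of the fibroblast-type genes, *Sparc* alone was captured in 98.8% of thinned XN1 cells and 74.9% of thinned CN4 cells. *Fbln2* was captured in 81.8% and 35.1% of them, but *Dcn* in only 0.384% and 0.633%. Cells of XN1 and CN4 with both kinds thus rarely held *Dcn*. The median KN1 cell carried 1 fibroblast-type gene, 39.5% of KN1 cells lacked lectican-type reads, and 48.6% held both kinds, and the part of the fewer captured genes in these values was not tested.

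**Figure D3:**
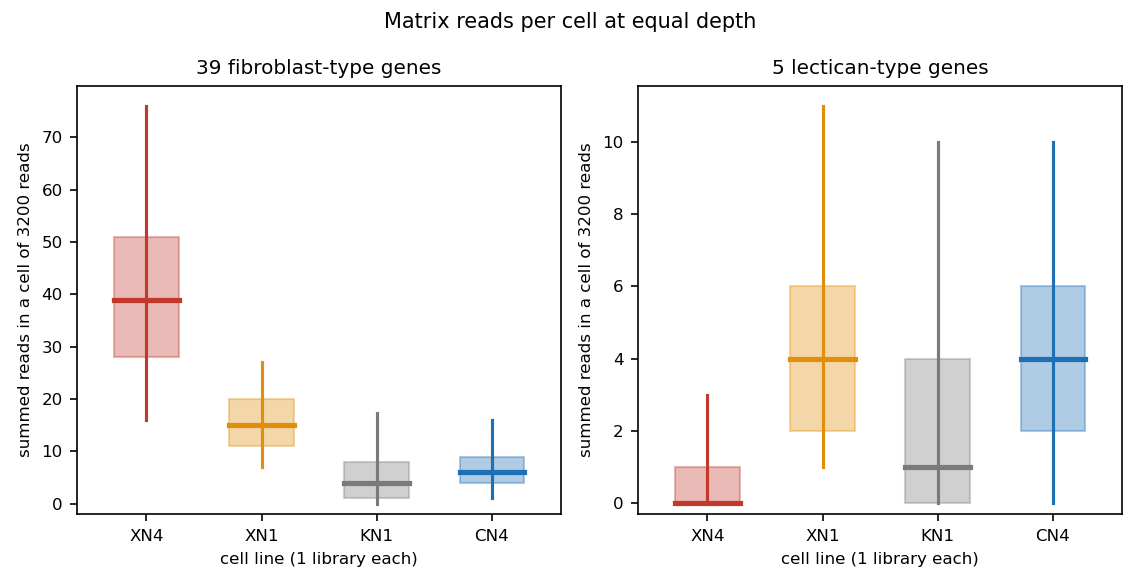
Summed reads of the 39 fibroblast-type genes (left) and the 5 lectican-type genes (right) in cells thinned to 3200 reads, by line; thick bars mark the median cell, boxes the middle 50% of cells, and vertical lines the 5th to the 95th percentile. The median falls from 39 in XN4 to 4 in KN1 for fibroblast-type reads, and is 0 in XN4 and 4 in both XN1 and CN4 for lectican-type reads.

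Within XN4, subclusters were sought from the other genes, with the 50 genes left out, and 4 were found. Subcluster 1 (2659 cells) was led by genes such as *Cxcl12* and *Clec3b*, subcluster 2 (650 cells) by genes of mitosis such as *Kif23* and *Ccnb1*, subcluster 3 (423 cells) by *Epha5* and *Meis2*, and subcluster 4 (195 cells) by *Fosl1* and *Hmga2*. Of the 46 genes listed in XN4, 23 were captured in at least 10% of thinned cells in each of the 4 subclusters, and 38 in at least 1 of them. Among the 23, *Nid1* was captured in 85.0% to 93.8% and *Dcn* in 74.6% to 87.5%. The shares of all genes at that threshold were not counted. Subcluster 4 differed in content. *Spp1* was captured in 70.3% of its cells against 3.88% to 21.4% in the other subclusters, *Timp2* in 89.7% against 22.5% to 49.9%, and *Fn1* in 83.8% against 37.1% to 50.6%. *Tnc*, which was captured in 5.34% of all XN4 cells, was captured in 37.3% of cells of subcluster 4 against 0.734% to 2.24%, and *Vcan* in 62.2% against 27.3% to 36.9%. In the opposite direction, *Ogn* was captured in 22.7% against 69.6% to 78.8%, *Fbn2* in 29.7% against 77.3% to 80.9%, *Sparcl1* in 16.8% against 56.9% to 67.4%, and *Eln* in 4.32% against 17.2% to 40.9%. Subcluster 4 also had the deepest cells, with a median of 17610 reads before thinning against 6244 to 11798.5, and the part of depth in these differences was not tested beyond the thinning. Subcluster 3 had the highest capture of *Lum* (39.4%), *Mgp* (46.6%), *Thbs2* (58.6%), and *Timp3* (55.4%).

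**Figure D4:**
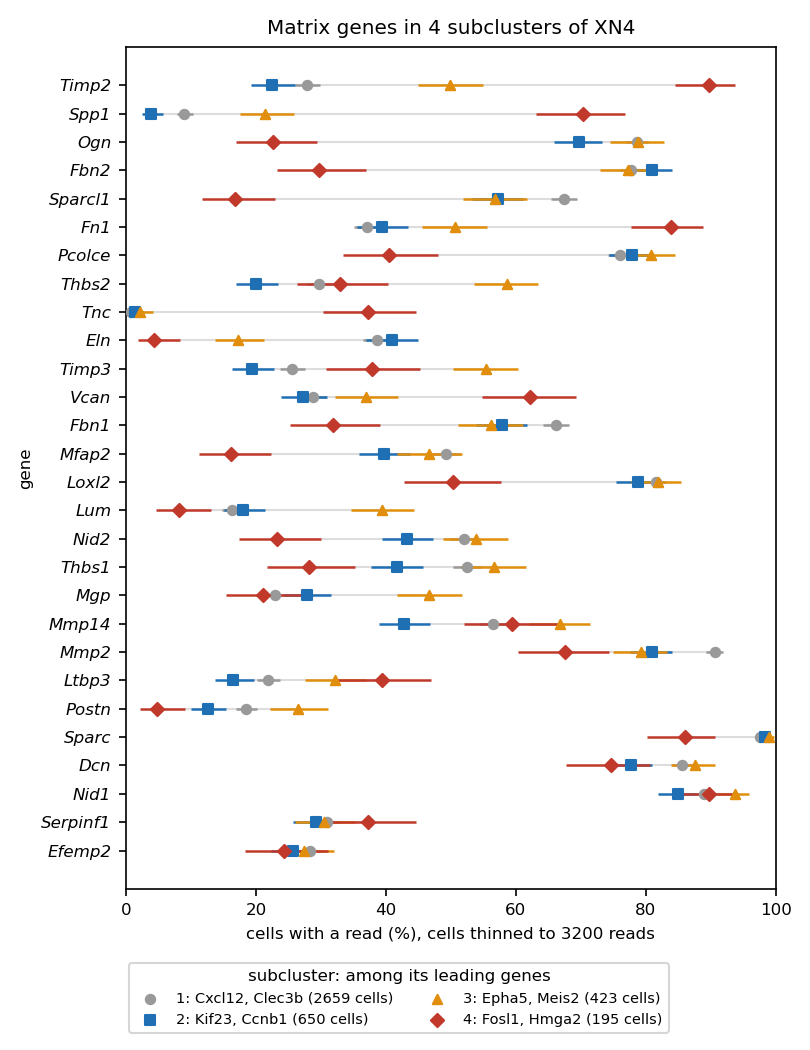
Share of thinned XN4 cells with a read of each gene captured in at least 25% of a subcluster, for the 4 subclusters, with exact 95% binomial intervals as horizontal bars; genes are ordered by the spread between subclusters. Subcluster 4 lies apart to the right for *Timp2* (89.7%) and *Spp1* (70.3%) and to the left for *Ogn* (22.7%) and *Fbn2* (29.7%), and the subclusters nearly coincide for *Efemp2*.

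Over single XN4 cells, matrix genes were weakly related. Among 528 pairs of 33 genes in 3384 thinned cells, the median Pearson r was 0.04, and 20 pairs reached 0.2. The highest were *Ogn* with *Sparc* (0.40), *Timp2* with *Spp1* (0.40), *Sparc* with *Nid1* (0.39), and *Ogn* with *Nid1* (0.38), and the lowest was *Fbn2* with *Spp1* (-0.22). The cells share 1 library, and in reads this sparse a weak correlation is no finding. In XN1 1 pair of 190 reached 0.2, in CN4 4 of 136, and in KN1 0 of 21.

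In CN4, most reads of several matrix genes came from rare cells. A subcluster of 10 of 3448 CN4 cells, led by *Col1a1*, *Apod*, and *Col3a1*, held 75.6% of the *Dcn* reads, 88.0% of the *Lum* reads, 95.6% of the *Bgn* reads, 95.7% of the *Postn* reads, and 83.1% of the *Spp1* reads in these CN4 cells. After this was seen, all cells with reads of each of *Col1a1*, *Col1a2*, and *Col3a1* were counted. There were 53 of 18157 in CN4 (0.292%, exact interval 0.219% to 0.382%) and 0 of 14452 in XN1 (exact upper limit 0.0255%). The limit covers cells with reads of all 3 genes and not cells that express them. In XN1, *Col1a1* was captured in 0.284% and *Col3a1* in 0.228% of cells, but *Col1a2* in 24.0%. In XN4 there were 161 of 8741, although *Col3a1* was captured in 97.7% of XN4 cells, as *Col1a2* was captured in 6.72% of them. KN1 could not be counted, since 1 of the 3 genes was listed there.

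The 53 CN4 cells resembled XN4 in some matrix genes and not in others, with XN4 values taken over all its cells. The 161 XN4 cells with reads of all 3 collagen genes differed from these. They captured *Lum* in 62.1%, *Postn* in 54.0%, *Vcan* in 68.3%, *Tnc* in 11.8%, and *Ogn* in 88.2%. The 161 were also deeper, with a median of 14545 reads against 8095 in other XN4 cells. *Dcn* was captured in 48 of 53 (other CN4 cells 0.906%), *Lum* in 42 (0.249%), *Postn* in 44 (0.204%), and *Spp1* in 30 (1.24%). The 53 cells held 61.5% of the *Dcn* reads of all CN4 cells, 79.1% of the *Lum* reads, 82.0% of the *Postn* reads, and 48.5% of the *Spp1* reads. Also, *Nid1* and *Mmp2* were captured in 49 each. *Ogn*, captured in 78.8% of XN4 cells, had a read in 1 of the 53 and *Aspn* in 0. *Tnc* was captured in 36 and *Vcan* in 53, against 5.34% and 45.7% of XN4 cells. *Bcan* was captured in 11 against 85.5% of the other CN4 cells, *Ncan* in 6 against 64.4%, and *Sox2* in 12 against 86.1%. Of the 53 barcodes, 1 was also found in XN4, and the median depth of 7855 reads was near that of the other CN4 cells at 7220.5. Without the 6 of these cells that are in the normalized table, the CN4 ratio of fibroblast-type to lectican-type level was 1.74 against 1.77 with them.

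**Figure D5:**
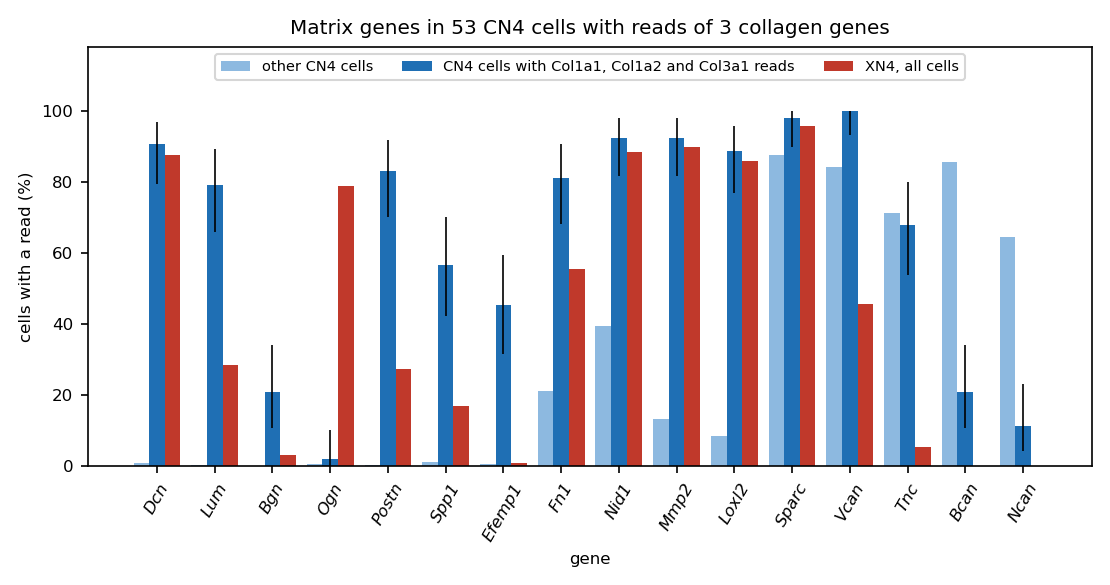
Share of cells with a read of 16 matrix genes in 53 CN4 cells with reads of *Col1a1*, *Col1a2*, and *Col3a1* (dark blue, with exact 95% binomial intervals), in the other CN4 cells (light blue), and in all XN4 cells (red), which were not selected by collagen reads. The dark blue and red bars are both tall for *Dcn*, *Nid1*, *Mmp2*, and *Loxl2*, but *Ogn* is tall in XN4 only and *Tnc* is short in XN4 only.

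Genes that act with this matrix were read from a list of 43, of which 36 passed the filter. This list, too, was chosen with earlier results of these data known, so its counts are descriptions. XN4 was at least 4-fold above each other line for 8 of them (background 5.3%), including *Col3a1* (5461 RPM against at most 24.1), the laminin chain genes *Lama2* (391 against at most 3.92) and *Lama4* (202 against at most 17.4), *Hspg2*, encoding perlecan (179.6 against at most 37.4), and the protease gene *Adamts1* (205 against at most 47.8). It was at least 4-fold below each other line for 3 (background 4.97%), which were *Ptprz1*, encoding a receptor-type chondroitin sulfate proteoglycan that binds tenascins (6.17 against 1024 to 2057), *Timp4* (1.22 against 9.0 to 153), and the laminin chain gene *Lama5* (0.720 against 39.9 to 63.0). The laminin alpha chain genes thus differed in direction, with *Lama2* and *Lama4* higher in XN4 and *Lama5* in the other lines. *Timp4* was also at least 4-fold higher in CN4 than in each other line, as 1 of the 36 tested (background 0.761%). In KN1, 4 of the 36 were at least 4-fold lower than in each other line (background 5.14%), which were *Col1a1*, *Col1a2*, *Has2*, and *Tgfb1*, and none of the 4 was listed there. With unlisted KN1 genes placed at 9 cells the count was 1 (*Col1a2*, background 1.74%), and that of genes higher in XN4 was 7 (background 4.5%). The laminin gamma chain gene *Lamc1*, with 420 RPM in XN4 against 393 in XN1, 185 in KN1, and 203 in CN4, as well as the hyaluronan receptor gene *Cd44*, with 86.5, 152, 38.2, and 88.5, did not pass 4-fold in any comparison between one line and each of the others.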

How the data were processed

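Single-cell transcriptomes of 4 lines labelled as NSC lines, with 1 library per line, were analysed. Raw read counts per gene and cell, deposited for XN4, XN1, and CN4, came from the BD Rhapsody WTA Analysis Pipeline 1.12.1 (GRCm38, GENCODE M19, intronic reads included), which counted reads and not molecular identifiers. Natural log values of each line, ln(1 + 10000 × reads / total), were made and deposited by the authors with Seurat 4.3.0 from up to 4000 random cells after ribosomal protein and mitochondrial genes were left out. These were turned back into whole reads (tolerance 0.01, 100% of values). The pipeline settings of KN1 are not given in the sources used here. The normalized XN4 table ends before genes whose symbols begin with Zr.

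Levels were pooled reads per 1000000 (RPM) over the cells of the normalized tables. Capture was at least 1 read, over all cells of the count tables (KN1: normalized table). Counts by line of genes and markers at or above 10% or 25%, and the 1% filter, used the cells used for levels instead. Intervals are exact Poisson or Clopper-Pearson at 95%. The Poisson intervals of levels take reads as independent. Reads were not reduced to molecules, and 2.14 to 7.39 reads lay behind each captured gene of a cell, so these intervals may be too narrow. The simulation below took reads as independent too. A gene was tested when captured in at least 1% of cells of a compared line, which 46 of the 50 genes were, and called at 4-fold. Reads were simulated for XN4 against each other line over 13804 genes, with counting error only around levels shared by the lines. With 200 genes changed 8-fold, 100% of raised, 99% of lowered, and 0% of unchanged genes were called. The simulation held no variation between libraries, derivations, or cells, so it cannot show how reliable the calls between single libraries are. Cells were thinned to 3200 reads, and 543, 776, 579, and 290 shallower cells of XN4, XN1, KN1, and CN4 were left out. Subclusters came from 2000 variable genes, 30 principal components, and the Leiden method at resolution 0.3, with 0.15 and 0.6 as alternatives (scanpy 1.11.5, igraph 0.11.9, Python 3.11.15). No doublet caller was used; an alternative left out the deepest 5% of cells. Values in every line are given for genes captured in at least 25% of cells of a line or called against each other line, and the rest by range and count. The genes, marker lists, and partner list were chosen with earlier results of these data known.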

Additional observations from a re-analysis of the deposited data

How the results depend on the processing

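No paired analysis was possible because each line is 1 library. The counts of 21 genes higher and 4 lower in XN4 were 16 (captures, 4.9% of all genes tested) to 24 (2-fold, 9.69%) and 4 to 5 (2-fold, 8.11%) under the alternatives run, which changed the level, the cells, the fold, the filter, or the lines. The small counts of the other lines moved. With captures per 1000000 captures in place of reads, 1 gene was lower in XN1 (0.775% of all genes tested), 6 were lower in KN1 (2.45%), and 0 were higher in CN4 (0.616%). Over all cells, 0 were higher in CN4 (0.753%). At 2-fold, 1 was higher (2.99%) and 2 lower (2.56%) in XN1, 1 higher (11.5%) and 20 lower (13.9%) in KN1, and 1 lower in CN4 (1.5%). At 8-fold, 6 were lower in KN1 (2.79%) and 0 higher in CN4 (0.42%). In alternatives added after seeing the data, placing unlisted KN1 genes at 9 cells left 1 lower in XN1 (0.992%) and 5 lower in KN1 (1.74%), and without KN1, 1 was higher (1.56%) and 4 lower (1.47%) in XN1 and 5 lower in CN4 (1.69%). The ratio of fibroblast-type to lectican-type level was 56.6 in XN4 against 3.37 in XN1, 2.16 in KN1, and 1.77 in CN4. As a mean over cells it was 59.9, 3.27, 2.07, and 1.70, and from captures 33.8, 3.57, 2.09, and 2.39. Over all cells it was 54.2 in XN4 and 1.86 in CN4, without the deepest cells 59.5 in XN4, and without the collagen-read cells (added after seeing the data) 1.74 in CN4. Without the leading fibroblast-type gene of each line (*Fbln2* in KN1 and *Sparc* in the others) it was 42.5, 1.82, 1.61, and 1.2. Without the leading lectican-type gene (*Bcan* in KN1 and *Vcan* in the others) it was 7427, 9.92, 6.94, and 3.09. With all genes kept, the order of the lines was the same in each of these except captures, where CN4 lay above KN1. With leading genes left out, a different gene was dropped in KN1, so its place in the order cannot be read from those ratios. Capture in XN4, XN1, KN1, and CN4 with at least 2 reads, which cannot exceed that with at least 1, was at a median of 0.738 times over 66 values. With thinning, which removes reads, it was lower for 63, at 0.770 times. These falls show the size of the change and do not test the results. The number of XN4 subclusters was 3 at resolution 0.15 and 6 at 0.6, and the spread of capture over them moved by at least 5 percentage points for 8 and 12 of 30 genes. For *Ogn* it was 55.5 to 74.6 points and for *Timp2* 64.0 to 67.3. Depth limits what a capture under 1% can show.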

Other observations

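Other SLRP genes, looked up after the values of the listed genes were seen, were found in XN4 at low capture. *Kera* (keratocan) stood at 24.6 RPM in XN4, in 8.81% of cells, and had reads in 0 XN1 cells and 3 CN4 cells. *Epyc* (epiphycan) was captured in 0.847% of XN4 cells and in 1 XN1 cell. *Ecm2*, a related leucine-rich matrix gene, was spread otherwise, with 24.7 RPM in XN4 against 59.0 in XN1, 86.6 in KN1, and 8.62 in CN4. Of the link protein genes beside the lecticans, *Hapln4* stood at 2.59, 20.9, 5.41, and 5.09, and *Hapln2* had reads in 1 XN4 cell, 4 XN1 cells, and 3 CN4 cells.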
